A study of Mus musculus with 8 samples.

Results

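The 32 genes described here encode the enzymes of cholesterol and fatty acid synthesis and the proteins that control them. They were taken by name from a list of genes driven by SREBP transcription factors, after the Ensembl identifiers of the files had been matched to mouse symbols in GENCODE vM21 on the GRCm38 build, whose coordinates are given. All 32 were found among the 30395 genes listed. Each had reads in all 8 libraries, and all 32 were among the 16446 genes with at least 1 CPM (reads per 1000000 assigned to genes) in at least 2 libraries, the set that was tested.

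Cells build cholesterol from acetyl-CoA by way of mevalonate, isoprenoids, squalene and lanosterol, and they build fatty acids from the same acetyl-CoA by way of malonyl-CoA. SREBP-2, made from Srebf2, mainly drives the sterol genes, and SREBP-1, made from Srebf1, mainly the fatty acid genes. Both are held in the endoplasmic reticulum with the escort protein SCAP by INSIG proteins when sterols are plentiful, and are cut free to enter the nucleus when sterols are scarce. In liver this system is best known from hepatocytes, while stellate cells are known for storing retinyl esters in lipid droplets.

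Libraries came from sorted liver mesenchymal cells of mice aged 8 weeks. All groups shared the genotype Gli1:CreER+/-; Ai9+/- and a mixed strain, C57BL/6 with SWR/J. In these mice a Cre recombinase made from the Gli1 locus can switch on a red fluorescent reporter. The 4 groups of 2 libraries were Gli1+ peribiliary mesenchymal cells at 5 d of BDL (bile duct ligation, which stops the flow of bile by surgery), Gli1+ cells of uninjured liver, stellate cells 5 d after BDL, and stellate cells of uninjured liver. No source used here gives the sort gates, the Cre induction or the number of mice behind a library. The p-values thus cover only how far the libraries of a group spread, and that spread may be technical.

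Library totals ranged from 11261775 to 19180370 reads. The 10 stellate cell markers summed to 1359.5 to 2147 CPM in the 4 Gli1+ libraries and 23701 to 65589 CPM in the 4 stellate libraries, and the 10 portal fibroblast markers to 2240.1 to 7200.3 CPM and 28.3 to 128 CPM. Gli1 itself was at 0 in 3 of the 4 stellate libraries. Other cell types were present too. Summed over 12 hepatocyte markers, libraries held 3501 and 19636 CPM in Gli1+ cells after BDL, 1222 and 188 CPM in uninjured Gli1+ cells, 2098 and 2414 CPM in stellate cells after BDL and 198 and 76.3 CPM in uninjured stellate cells, and all 12 were above 0 in every library. The 10 cholangiocyte markers summed to 15555 and 7611 CPM in Gli1+ cells after BDL, 4087 and 3237 CPM in uninjured Gli1+ cells, 199 and 769.6 CPM in stellate cells after BDL and 27.7 and 17.9 CPM in uninjured stellate cells, with Cftr at 0 in 2 of the 4 stellate libraries. The 9 mesothelial markers summed to 3775 to 11419 CPM in Gli1+ and 4.77 to 29.8 CPM in stellate libraries. The 12 macrophage markers summed to 12480.2 and 69.4 CPM in the uninjured stellate libraries and to 1339 to 3795 CPM in the other 6. The 12 endothelial markers ranged from 175 to 2769 CPM, and the mitochondrial share from 0.808 to 5.72% of CPM. Fewer cells of a type and less RNA per cell cannot be told apart in such libraries.

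Differences are on the log2(CPM + 1) scale with the standard error (SE) of a limma model over all 8 libraries. A gene is called where its p is under 0.05 after Benjamini-Hochberg (BH) adjustment across every tested gene. Each call among the 32 genes was tried again under alternatives, which were other tools, scalings and filters and fits with 1 library left out. Calls of other pathway genes were set against TMM scaling only.

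The sterol pathway stood apart in Gli1+ cells after BDL. The 19 enzymes counted here, from Acat2 to Dhcr7, include Ggps1, which makes an isoprenoid of protein prenylation. Their CPM summed to 1489.6 and 1508 CPM in Gli1+ cells after BDL and 550.4 and 463 CPM in uninjured Gli1+ cells. In stellate cells the sums were 473 and 417 CPM after BDL and 470.3 and 379.9 CPM in uninjured liver. Both Gli1+ libraries after BDL were thus above all 6 others, which lay in the range 379.9 to 550.4 CPM. The summed hepatocyte markers of these 2 Gli1+ libraries were 3501 and 19636 CPM, while their summed sterol enzymes were 1489.6 and 1508 CPM. Cholangiocyte markers were also highest in these 2 libraries. In the 2 stellate libraries after BDL the hepatocyte and endothelial markers were above those of both uninjured stellate libraries. Their sterol enzyme sums overlapped with the uninjured ones, but Ggps1, counted in them, was lower after BDL. It was at 28.7 and 9.60 CPM in stellate cells after BDL and 73.9 and 92.02 CPM in uninjured ones. Of the 19 enzymes, 13 had a log2 difference above 0 between BDL and uninjured stellate cells, as had 9992 of the 16446 genes tested. The part of hepatocytes, cholangiocytes and endothelial cells in these sums was not tested. The 7 fatty acid genes summed to 693 and 1314 CPM in Gli1+ cells after BDL, 533 and 379 CPM in uninjured Gli1+ cells, 411 and 513 CPM in stellate cells after BDL and 362 and 410.4 CPM in uninjured stellate cells, and Scd1 alone accounted for 79.4 and 612 CPM of the sums in Gli1+ cells after BDL. The 5 control genes summed to 495 and 577 CPM in Gli1+ cells after BDL, 495 and 448 CPM in uninjured Gli1+ cells, 384 and 396 CPM in stellate cells after BDL and 251 and 359 CPM in uninjured stellate cells.

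**Figure D1:**
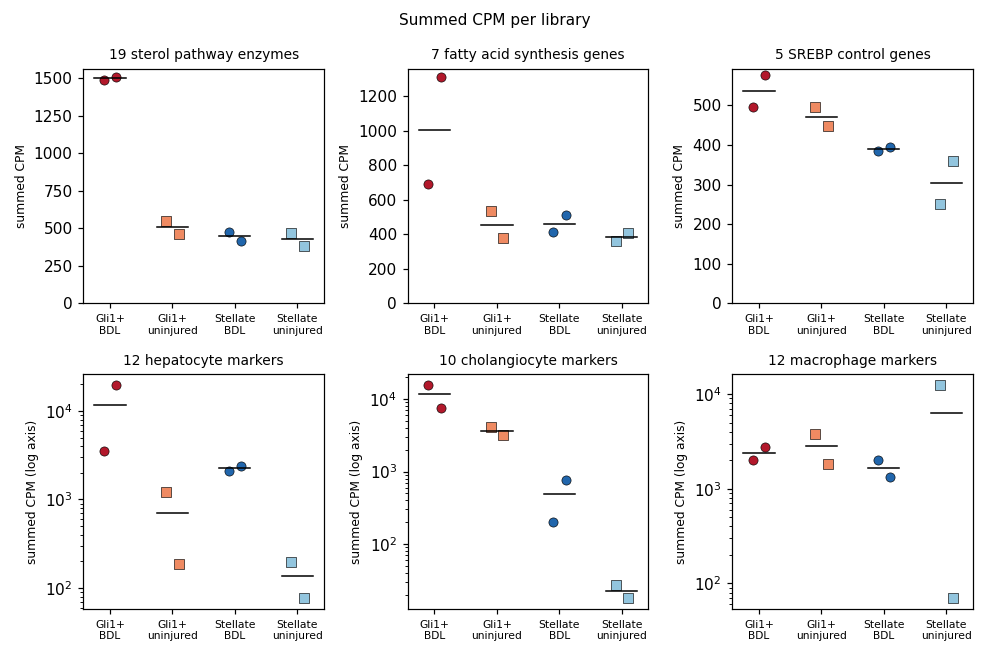
Summed CPM per library of the 19 sterol pathway enzymes, the 7 fatty acid synthesis genes and the 5 SREBP control genes (upper row, linear axes from 0) and of hepatocyte, cholangiocyte and macrophage markers (lower row, log axes). Each point is a library and each bar the mean of 2; the sterol enzymes of Gli1+ cells after BDL sit at 1489.6 and 1508 CPM, above the other 6 libraries, and hepatocyte and cholangiocyte markers are also highest in these 2 libraries.

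The first enzymes of the pathway make mevalonate and activate it. Hmgcs1 (chromosome 13, 119690379 to 119708260, plus strand), which condenses acetyl-CoA units to HMG-CoA, was read at 269.9 and 381 CPM in Gli1+ cells after BDL, 86.2 and 56.0 CPM in uninjured Gli1+ cells, 56.0 and 55.3 CPM in stellate cells after BDL and 46.4 and 31.6 CPM in uninjured stellate cells. Both Gli1+ libraries after BDL were above every other library. Gli1+ cells exceeded stellate cells after BDL by 2.505 ± 0.38 (SE) on the log2(CPM + 1) scale (BH-adjusted p = 0.00691 by limma). In uninjured liver the difference was 0.84 ± 0.38, which did not pass (limma BH-adjusted p = 0.223). Averaged over uninjured and BDL liver it was 1.67 ± 0.27 (limma BH-adjusted p = 0.00352). The averaged call held under all 15 alternatives tried, with adjusted p from 1.77e-05 to 0.0234, while the call after BDL was lost without any 1 of the 4 libraries compared (adjusted p up to 0.0798). An antisense gene that the files do not list covers 12.1% of its exon bases. Between BDL and uninjured Gli1+ cells Hmgcs1 differed by 2.19 ± 0.38, which did not pass (limma BH-adjusted p = 0.0646).

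Acat2 (chromosome 17, 12942890 to 12960747, minus strand), a cytosolic thiolase that supplies acetoacetyl-CoA, was read at 79.0 and 35.5 CPM in Gli1+ cells after BDL, 44.1 and 26.9 CPM in uninjured Gli1+ cells, 10.3 and 12.4 CPM in stellate cells after BDL and 6.18 and 10.5 CPM in uninjured stellate cells. All 4 Gli1+ libraries were above all 4 stellate libraries. Averaged over uninjured and BDL liver it was higher in Gli1+ cells by 2.05 ± 0.43 (SE; limma BH-adjusted p = 0.0125), a call lost without the first Gli1+ or the first stellate library after BDL (adjusted p up to 0.0712). Its longest transcript is alike at 97.7% identity to Acat3 over 65.6% of its length. It is also alike at 98.65% identity to Tcp1, itself read at up to 221 CPM, over 19.8% of its length. Reads may thus be split between these genes.

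Mvk (chromosome 5, 114444269 to 114460591, plus strand), mevalonate kinase, was read at 33.1 and 28.6 CPM in Gli1+ cells after BDL, 2.93 and 1.88 CPM in uninjured Gli1+ cells, 22.1 and 26.2 CPM in stellate cells after BDL and 8.93 and 5.47 CPM in uninjured stellate cells. It was lowest in the uninjured Gli1+ libraries, and in both populations the BDL libraries were above the uninjured ones. The BDL difference was 3.24 ± 0.65 in Gli1+ cells and 1.64 ± 0.65 in stellate cells, and neither passed (limma BH-adjusted p = 0.0864 and 0.355). Pmvk, the next kinase, was read at 57.1 and 59.4 CPM in Gli1+ cells after BDL, 41.2 and 23.9 CPM in uninjured Gli1+ cells, 17.9 and 20.4 CPM in stellate cells after BDL and 34.8 and 22.4 CPM in uninjured stellate cells. Its BDL Gli1+ libraries were above all others, and its log2 difference from stellate cells after BDL was 1.56 ± 0.47 (limma BH-adjusted p = 0.0959). Mvd, which decarboxylates mevalonate to the isoprenoid unit, ranged from 4.54 to 50.1 CPM. Its libraries did not overlap between Gli1+ and stellate cells after BDL (50.1 and 17.1 against 12.7 and 11.8 CPM), and overlapped between the populations in uninjured liver and between BDL and uninjured liver in each population.

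Promoter windows are shown for the sterol enzymes that had a promoter entry and the largest BDL differences in Gli1+ cells (Hmgcs1, Mvk, Cyp51 and Msmo1) and for Ggps1 and Elovl6, whose levels ran differently. Each is the 250 bases before the annotated start in RefSeq on GRCm38.p6, 5′ to 3′ on the gene's strand. Capitals mark TCACNCCAC, the core of a sterol regulatory element to which SREBPs bind, and CCAAT, the box of the factor NF-Y, on either strand (ATTGG is CCAAT on the other strand).
Hmgcs1 (chr13:119690101-119690350, plus strand): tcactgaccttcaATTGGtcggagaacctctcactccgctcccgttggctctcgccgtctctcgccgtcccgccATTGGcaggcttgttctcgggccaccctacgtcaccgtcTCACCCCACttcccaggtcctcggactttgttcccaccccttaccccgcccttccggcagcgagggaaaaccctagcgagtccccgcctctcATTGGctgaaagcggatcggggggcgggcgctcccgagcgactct
Mvk (chr5:114444019-114444268, plus strand): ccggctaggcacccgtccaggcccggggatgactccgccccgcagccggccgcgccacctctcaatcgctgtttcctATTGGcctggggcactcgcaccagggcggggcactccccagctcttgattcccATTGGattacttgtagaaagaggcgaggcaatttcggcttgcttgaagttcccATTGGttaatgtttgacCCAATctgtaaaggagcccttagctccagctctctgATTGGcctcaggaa
Cyp51 (chr5:4104698-4104947, minus strand): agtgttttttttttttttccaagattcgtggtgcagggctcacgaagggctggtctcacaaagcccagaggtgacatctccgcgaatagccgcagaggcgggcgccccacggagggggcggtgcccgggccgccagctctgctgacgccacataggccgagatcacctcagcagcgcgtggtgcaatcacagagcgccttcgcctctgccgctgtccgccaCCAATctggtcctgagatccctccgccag
Msmo1 (chr8:64733579-64733828, minus strand): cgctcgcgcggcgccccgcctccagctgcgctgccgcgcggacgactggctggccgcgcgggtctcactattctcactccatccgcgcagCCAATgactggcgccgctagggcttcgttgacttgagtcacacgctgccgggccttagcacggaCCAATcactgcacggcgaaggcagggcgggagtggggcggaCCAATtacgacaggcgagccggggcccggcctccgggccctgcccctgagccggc
Ggps1 (chr13:14063489-14063738, minus strand): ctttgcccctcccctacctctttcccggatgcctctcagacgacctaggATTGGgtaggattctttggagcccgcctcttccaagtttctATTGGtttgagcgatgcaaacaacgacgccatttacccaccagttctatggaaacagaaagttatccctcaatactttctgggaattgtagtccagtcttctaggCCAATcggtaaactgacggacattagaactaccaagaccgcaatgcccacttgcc
Elovl6 (chr3:129532136-129532385, plus strand): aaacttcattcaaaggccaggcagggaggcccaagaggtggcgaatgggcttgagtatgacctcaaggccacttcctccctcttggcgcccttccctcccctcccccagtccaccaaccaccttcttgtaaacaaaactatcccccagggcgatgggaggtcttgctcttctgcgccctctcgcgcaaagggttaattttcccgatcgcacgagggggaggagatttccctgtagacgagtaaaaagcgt

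Of the 32 genes, 26 matched a promoter entry in RefSeq, and Fdps, Fdft1, Sqle, Stard4, Scd1 and Scd2 did not. Windows of 300 bases (250 before to 50 after the start) were searched on both strands. TCACNCCAC was found in 1 of the 26, Hmgcs1, at base -137, against 1.35% of the 11654 tested genes with an entry. CCAAT was found in 22 of 26 (84.6%), including 15 of 16 sterol enzymes, against 42.1% of tested genes. The Sp1 box GGGCGG was found in 21 of 26 (80.8%) against 65% of tested genes, and the E-box CACGTG in 5 of 26 (19.2%) against 11%. These are exact matches of letters, so a site with any fixed letter changed was not counted, and no test was made. Mvk held 5 CCAAT boxes before its start, Ggps1 and Hmgcs1 3 each, and Elovl6 held none in the window.

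The isoprenoid enzymes follow. Idi1, the isomerase of the isoprenoid unit, was read at 3.47 and 2.81 CPM in Gli1+ cells after BDL, 0.710 and 0.114 CPM in uninjured Gli1+ cells, 1.98 and 0.849 CPM in stellate cells after BDL and 0.245 and 0.104 CPM in uninjured stellate cells. Fdps, farnesyl diphosphate synthase, was read at 7.74 and 7.90 CPM in Gli1+ cells after BDL, 3.55 and 0.970 CPM in uninjured Gli1+ cells, 1.34 and 2.89 CPM in stellate cells after BDL and 0.428 and 0.469 CPM in uninjured stellate cells. For both enzymes the Gli1+ libraries after BDL were above every other library, at few reads. Idi1 and Fdps have processed pseudogenes of up to 100% and 98.9% identity, and 26.7% of the exon bases of Fdps are shared with an annotated gene on the same strand, so their levels are uncertain. The log2 difference of Idi1 between BDL and uninjured Gli1+ cells was 1.58 ± 0.57 (SE; limma BH-adjusted p = 0.325).

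Ggps1 (chromosome 13, 14050659 to 14063488, minus strand), which makes the C20 isoprenoid of protein prenylation, was highest in another group. It was read at 22.7 and 16.4 CPM in Gli1+ cells after BDL, 16.0 and 19.1 CPM in uninjured Gli1+ cells, 28.7 and 9.60 CPM in stellate cells after BDL and 73.9 and 92.02 CPM in uninjured stellate cells. The 2 uninjured stellate libraries were above the other 6. In uninjured liver it was lower in Gli1+ than in stellate cells by a log2 difference of -2.18 ± 0.58 (SE; limma BH-adjusted p = 0.0471), a call that 10 of 16 alternatives lost (adjusted p from 0.00231 to 0.17), among them each of the 4 that left out a library compared. Between BDL and uninjured stellate cells the difference was -2.23 ± 0.58, which did not pass (limma BH-adjusted p = 0.183). Its exons share 5.44% of their bases with Arid4b on the opposite strand.

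The squalene stage commits carbon to sterols. Sqle (chromosome 15, 59315077 to 59331192, plus strand), squalene epoxidase, was read at 115 and 89.9 CPM in Gli1+ cells after BDL, 18.6 and 7.36 CPM in uninjured Gli1+ cells, 30.8 and 34.7 CPM in stellate cells after BDL and 10.2 and 5.42 CPM in uninjured stellate cells. In both populations the BDL libraries were above the uninjured ones, and the Gli1+ libraries after BDL were above all others. Averaged over both populations Sqle was higher after BDL by 2.498 ± 0.41 (SE; BH-adjusted p = 0.039 by limma). It was 1 of 156 genes called in this comparison. The call was kept by 6 of 15 alternatives, including TMM scaling, edgeR and DESeq2. It was lost with limma-voom, with no filter and with a replicate block. It was also lost without any 1 of the Gli1+ libraries or the stellate BDL libraries. Over the alternatives the log2 difference ranged from 2.19 to 2.80. The differences within Gli1+ and stellate cells were 3.01 ± 0.58 and 1.99 ± 0.58, and neither passed alone (limma BH-adjusted p = 0.0818 and 0.227).

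Fdft1 (chromosome 14, 63145150 to 63179578, minus strand), squalene synthase, was read at 97.3 and 59.9 CPM in Gli1+ cells after BDL, 29.6 and 11.2 CPM in uninjured Gli1+ cells, 17.2 and 17.0 CPM in stellate cells after BDL and 7.77 and 2.40 CPM in uninjured stellate cells. Its Gli1+ libraries were above the stellate libraries in both conditions. Averaged over conditions it was higher in Gli1+ cells by 1.96 ± 0.50 (limma BH-adjusted p = 0.028), a call that 8 of 15 alternatives kept. The Fdft1 call was lost with limma-voom, with no filter and without the first uninjured Gli1+ library or any BDL library. Exons of Fdft1 share 18.3% of their bases with Ctsb on the opposite strand, itself read at 756.9 to 3204 CPM, so part of its reads cannot be told apart if strand was not used. Lss, lanosterol synthase, was read at 23.9 and 17.0 CPM in Gli1+ cells after BDL, 8.70 and 4.62 CPM in uninjured Gli1+ cells, 11.2 and 15.7 CPM in stellate cells after BDL and 0.122 and 8.08 CPM in uninjured stellate cells. The lowest Lss library, the first of uninjured stellate cells, held the value of 2 reads.

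The last steps turn lanosterol into cholesterol. Cyp51 (chromosome 5, 4081145 to 4104746, minus strand), lanosterol demethylase, was read at 158 and 138 CPM in Gli1+ cells after BDL, 29.5 and 24.6 CPM in uninjured Gli1+ cells, 35.0 and 48.5 CPM in stellate cells after BDL and 40.7 and 21.3 CPM in uninjured stellate cells. The Gli1+ libraries after BDL were above the other 6, which lay between 21.3 and 48.5 CPM. It was higher in Gli1+ than in stellate cells after BDL by 1.82 ± 0.44 (SE; limma BH-adjusted p = 0.0423), a call that 7 of 16 alternatives kept. Cyp51 lost this call with edgeR, with no filter, with a replicate block and without any Gli1+ or either stellate BDL library. Its BDL difference was 2.41 ± 0.44 in Gli1+ cells and 0.47 ± 0.44 in stellate cells (limma BH-adjusted p = 0.0692 and 0.741).

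Msmo1, a methylsterol oxidase, was read at 194 and 239 CPM in Gli1+ cells after BDL, 51.0 and 40.9 CPM in uninjured Gli1+ cells, 70.7 and 49.8 CPM in stellate cells after BDL and 15.5 and 58.1 CPM in uninjured stellate cells. As with Cyp51, the Gli1+ libraries after BDL were above all others. Its log2 differences were 2.21 ± 0.57 between BDL and uninjured Gli1+ cells and 1.84 ± 0.57 between Gli1+ and stellate cells after BDL (limma BH-adjusted p = 0.149 and 0.102). Ebp, the sterol isomerase, was read at 153 and 138 CPM in Gli1+ cells after BDL, 68.6 and 66.2 CPM in uninjured Gli1+ cells, 54.5 and 43.8 CPM in stellate cells after BDL and 106 and 25.7 CPM in uninjured stellate cells. Here too the BDL Gli1+ libraries were highest, while the uninjured stellate libraries lay far apart.

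Sc5d (chromosome 9, 42251595 to 42264256, minus strand), the sterol desaturase near the end of the pathway, was read at 79.9 and 113 CPM in Gli1+ cells after BDL, 65.4 and 112 CPM in uninjured Gli1+ cells, 27.3 and 26.1 CPM in stellate cells after BDL and 24.95 and 50.4 CPM in uninjured stellate cells. All Gli1+ libraries were above all stellate libraries, and BDL and uninjured libraries overlapped in both populations. Averaged over conditions it was higher in Gli1+ cells by 1.52 ± 0.33 (SE; limma BH-adjusted p = 0.0152), kept by 10 of 15 alternatives and lost with edgeR and without the second Gli1+ library of either condition or either stellate BDL library (adjusted p up to 0.0714). Tm7sf2 and Nsdhl, a sterol reductase and a sterol dehydrogenase, were read at 36.3 and 30.5 and at 64.6 and 37.8 CPM in Gli1+ cells after BDL, above the ranges of 2.34 to 21.3 and 3.64 to 29.2 CPM in the other 6 libraries. Exons of Tm7sf2 share 12.1% of their bases with Vps51 on the same strand. Hsd17b7, a keto-reductase, was read at 18.9 and 45.9 CPM in Gli1+ cells after BDL and at 2.81 to 13.2 CPM elsewhere. Dhcr7, which makes cholesterol from its last precursor in one branch, overlapped between Gli1+ and stellate cells after BDL, at 25.6 and 50.4 against 31.1 and 11.7 CPM.

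**Figure D2:**
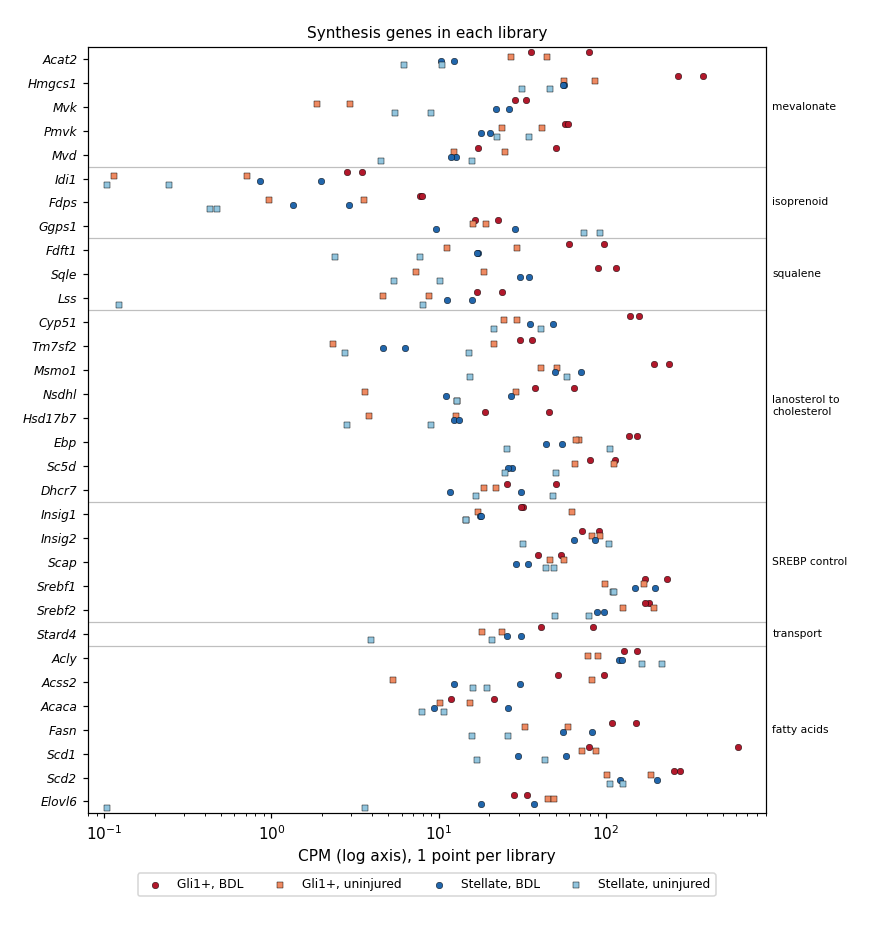
CPM of each of the 32 genes (log axis) in the 8 libraries, ordered by role from mevalonate synthesis to fatty acid synthesis. Red and orange points are Gli1+ cells and blue points stellate cells, circles BDL and squares uninjured liver; red circles lie at the right of most sterol enzyme rows, for example at 194 and 239 CPM for Msmo1, and the uninjured stellate squares lie at the right for Ggps1.

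The genes that control SREBPs come next. Srebf2 (chromosome 15, 82147181 to 82205379, plus strand) was read at 180.3 and 171 CPM in Gli1+ cells after BDL, 127 and 193 CPM in uninjured Gli1+ cells, 97.0 and 88.8 CPM in stellate cells after BDL and 49.7 and 79.4 CPM in uninjured stellate cells. All 4 Gli1+ libraries were above all 4 stellate libraries. Averaged over conditions it was higher in Gli1+ cells by 1.11 ± 0.25 (SE; limma BH-adjusted p = 0.0187), but the call was kept by 7 of 15 alternatives and lost after TMM scaling, with edgeR and limma-voom and without either Gli1+ BDL library, the second uninjured Gli1+ library or either stellate BDL library (adjusted p up to 0.0777). Srebf1 was read at 172 and 230.2 CPM in Gli1+ cells after BDL, 168 and 98.8 CPM in uninjured Gli1+ cells, 149.6 and 195 CPM in stellate cells after BDL and 111 and 111 CPM in uninjured stellate cells. Its BDL libraries were above the uninjured ones in both populations, by 0.62 ± 0.25 on average (limma BH-adjusted p = 0.282).

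Insig1, itself a target of SREBPs, encodes a retention protein. It was read at 31.8 and 31.2 CPM in Gli1+ cells after BDL, 62.4 and 17.2 CPM in uninjured Gli1+ cells, 17.7 and 18.01 CPM in stellate cells after BDL and 14.6 and 14.5 CPM in uninjured stellate cells. Its Gli1+ libraries after BDL lay inside the wide range of the uninjured ones. Insig2, the second retention protein, overlapped between all groups compared, from 32.0 to 105 CPM. Scap, the escort, ranged from 29.1 to 55.9 CPM, with the 2 stellate BDL libraries lowest. Stard4, a sterol carrier, was read at 40.7 and 83.6 CPM in Gli1+ cells after BDL, 23.9 and 18.03 CPM in uninjured Gli1+ cells, 30.9 and 25.7 CPM in stellate cells after BDL and 20.7 and 3.96 CPM in uninjured stellate cells, above the uninjured libraries after BDL in both populations. Between BDL and uninjured liver its averaged difference was 1.47 ± 0.52 (limma BH-adjusted p = 0.224).

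The fatty acid genes begin with Acly (chromosome 11, 100476353 to 100528000, minus strand), which makes cytosolic acetyl-CoA from citrate. It was read at 154 and 128 CPM in Gli1+ cells after BDL, 89.3 and 77.5 CPM in uninjured Gli1+ cells, 119.7 and 125 CPM in stellate cells after BDL and 163 and 217 CPM in uninjured stellate cells. Uninjured stellate cells were highest and uninjured Gli1+ cells lowest. In uninjured liver Acly was lower in Gli1+ than in stellate cells by a log2 difference of -1.17 ± 0.31 (SE; limma BH-adjusted p = 0.0442), a call that edgeR, limma-voom and DESeq2 shared and that 10 of 16 alternatives lost, among them each that left out a library other than the first uninjured stellate one (adjusted p from 0.00213 to 0.132). Fasn, fatty acid synthase, was read at 108 and 150.3 CPM in Gli1+ cells after BDL, 32.9 and 59.3 CPM in uninjured Gli1+ cells, 82.8 and 55.2 CPM in stellate cells after BDL and 15.9 and 26.1 CPM in uninjured stellate cells. In both populations the BDL libraries were above the uninjured ones, by 1.51 ± 0.46 in Gli1+ and 1.68 ± 0.46 in stellate cells (limma BH-adjusted p = 0.235 and 0.2). Averaged over both, the Fasn difference was 1.60 ± 0.33 (limma BH-adjusted p = 0.066).

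Elovl6 (chromosome 3, 129532355 to 129638495, plus strand), which lengthens palmitate to stearate, was read at 33.9 and 28.3 CPM in Gli1+ cells after BDL, 45.2 and 48.6 CPM in uninjured Gli1+ cells, 37.0 and 17.8 CPM in stellate cells after BDL and 3.61 and 0.104 CPM in uninjured stellate cells. The uninjured stellate libraries were below the other 6, the second of them at the value of 2 reads. In uninjured liver Elovl6 was higher in Gli1+ than in stellate cells by 4.41 ± 0.77 (SE; limma BH-adjusted p = 0.00875), a call kept by 13 of 16 alternatives and lost with edgeR, in a fit of those 4 libraries alone and without the first uninjured Gli1+ library (adjusted p up to 0.0807). Averaged over conditions the difference was 2.33 ± 0.55 (limma BH-adjusted p = 0.0202), kept by 7 of 15 alternatives and lost with edgeR, with no filter and without any Gli1+ or either stellate BDL library. After BDL alone the libraries of the 2 populations overlapped, at a difference of 0.25 ± 0.77 (limma BH-adjusted p = 0.917). The averaged difference thus came mostly from uninjured liver. Between BDL and uninjured stellate cells Elovl6 differed by 3.57 ± 0.77, which did not pass (limma BH-adjusted p = 0.136).

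Scd1 and Scd2 are stearoyl-CoA desaturases, which make monounsaturated fatty acids. Scd1 was read at 79.4 and 612 CPM in Gli1+ cells after BDL, 86.6 and 71.8 CPM in uninjured Gli1+ cells, 29.8 and 57.4 CPM in stellate cells after BDL and 43.1 and 17.0 CPM in uninjured stellate cells. A single library, the second of Gli1+ cells after BDL, stood far above the rest, and this library also had the highest hepatocyte marker sum. Scd2 was read at 255 and 276 CPM in Gli1+ cells after BDL, 187 and 101 CPM in uninjured Gli1+ cells, 120.4 and 201 CPM in stellate cells after BDL and 105 and 126 CPM in uninjured stellate cells, with both BDL Gli1+ libraries above all others. Neither desaturase passed in any comparison by limma, at adjusted p of 0.0637 or more for Scd1 and 0.265 or more for Scd2. Transcripts of the 2 genes are alike at 95.5% identity over 11.4% of the longest Scd2 transcript. Acss2, which makes acetyl-CoA from acetate, ranged from 5.36 to 97.6 CPM with both extremes in Gli1+ cells, and Acaca, acetyl-CoA carboxylase, from 7.98 to 26.0 CPM with overlap in every comparison. A pseudogene is alike to Acaca at 99.2% identity over 64.3% of its longest transcript.

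Levels of different genes were set side by side only as mean CPM per kilobase of annotated exon. Over the 8 libraries Ebp (35.5), Scd2 (31.4), Srebf1 (27.4) and Hmgcs1 (26.7) were highest, and Idi1 (0.367), Fdps (0.751), Acaca (0.827) and Lss (1.03) were lowest. The order of the highest differed between groups. Hmgcs1 was highest in Gli1+ cells after BDL, at 70.8, against 15.5 in uninjured Gli1+ cells, 12.1 in stellate cells after BDL and 8.5 in uninjured stellate cells. The highest were Ebp (29.2) in uninjured Gli1+ cells, Srebf1 (30.6) in stellate cells after BDL and Acly (36) in uninjured stellate cells. Of the low genes, Idi1, Fdps and Acaca have the near-identical copies named above.

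The comparison of Gli1+ with stellate cells after BDL gave the most uniform direction. All 32 genes had a log2 difference above 0 in CPM, and 30 did after TMM scaling, in which Acaca and Insig2 were below 0. Of the 16446 genes tested, 9941 were above 0 in CPM. The libraries of the 2 populations did not overlap for 26 of 32 genes, all higher in Gli1+ cells, where 34.8% of all genes tested were higher and 19% lower without overlap. The median difference was 1.09 for the 32 genes and 1.55 for the 19 sterol enzymes, against 0.23 for all genes tested. Hmgcs1 and Cyp51 passed the threshold, 2 of 32 higher and 0 lower, against 4.44% of all genes called higher, 2.36% lower and 6.8% in all. At an unadjusted p under 0.05 there were 12 higher and 0 lower, against 13% and 6.55% of genes. Besides the 2 called, these were Acat2, Pmvk, Fdft1, Sqle, Tm7sf2, Msmo1, Ebp, Sc5d, Srebf2 and Scd1, by log2 differences of 0.91 to 2.41 (limma BH-adjusted p from 0.0595 to 0.253). DESeq2 called 5 members (Acat2, Hmgcs1, Cyp51, Sc5d and Scd1), limma-voom 2 and edgeR 1 (Hmgcs1), where edgeR called 3.78%, limma-voom 3.6% and DESeq2 11.2% of the genes each tested. Without the second Gli1+ library after BDL, 30 of 32 were above 0 with a median of 0.92. That library held 19636 CPM of hepatocyte markers, and the first, which was kept, held 3501 CPM, more than any stellate or uninjured library. The part of hepatocytes in this comparison was not tested. The limma calls of Hmgcs1 and Cyp51 were lost without any 1 of the 4 libraries compared. A fit of these 4 libraries alone called 10, all of them sterol enzymes, where it called 12.4% of all genes.

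In uninjured liver the direction was mixed. Elovl6 was called higher, and Acly and Ggps1 lower, in Gli1+ cells, that is 1 of 32 higher against 8.06% of all genes and 2 lower against 3.02% (11.1% in all). The 3 calls were 0 without the first uninjured Gli1+ library. At an unadjusted p under 0.05 there were 6 higher and 2 lower, against 17.2% and 6.85% of genes. Besides Elovl6, the higher ones were Acat2, Fdft1, Sc5d, Srebf2 and Fasn, by log2 differences of 1.08 to 1.96 (limma BH-adjusted p from 0.0527 to 0.197). DESeq2 called 5 members, limma-voom 3 and edgeR 1 (Acly), where edgeR called 7.4%, limma-voom 9.18% and DESeq2 19.3% of the genes each tested. Libraries did not overlap for 10 genes that were higher and 3 that were lower in Gli1+ cells, against 31.1% and 14.6% of genes tested. The first share is close to that of all genes. Above 0 were 26 of the 32 genes in CPM and 21 after TMM scaling, where 10147 of the 16446 genes tested were above 0 in CPM. The median was 0.49 for the 32 genes and 0.32 for all genes tested. This median was not stable. It was 0.25 against 0.12 for all genes after TMM scaling, 0.30 against 0.08 with edgeR, 0.80 against 0.28 without the second uninjured Gli1+ library, and 0.21 against 0.25, below that of all genes, without the second uninjured stellate library. Averaged over both conditions, Acat2, Hmgcs1, Fdft1, Sc5d, Srebf2 and Elovl6 were called higher and 0 lower, 6 of 32 against 12% of genes called higher, 4.91% lower and 16.9% in all. At an unadjusted p under 0.05 there were 14 higher and 1 lower (Ggps1), against 21.4% and 8.69%. Besides the 6, the higher ones were Pmvk, Fdps, Sqle, Cyp51, Msmo1, Ebp, Fasn and Scd1, by log2 differences of 0.84 to 1.94 (limma BH-adjusted p from 0.0637 to 0.157). The averaged count was 5 after TMM scaling, 3 with edgeR, 4 with limma-voom and 8 with DESeq2, where edgeR called 12.8%, limma-voom 15.6% and DESeq2 21.7% of the genes each tested. It was 10 without the first uninjured stellate library, 3 and 2 without the first and second Gli1+ library after BDL, and 1 and 2 without the first and second stellate library after BDL.

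**Figure D3:**
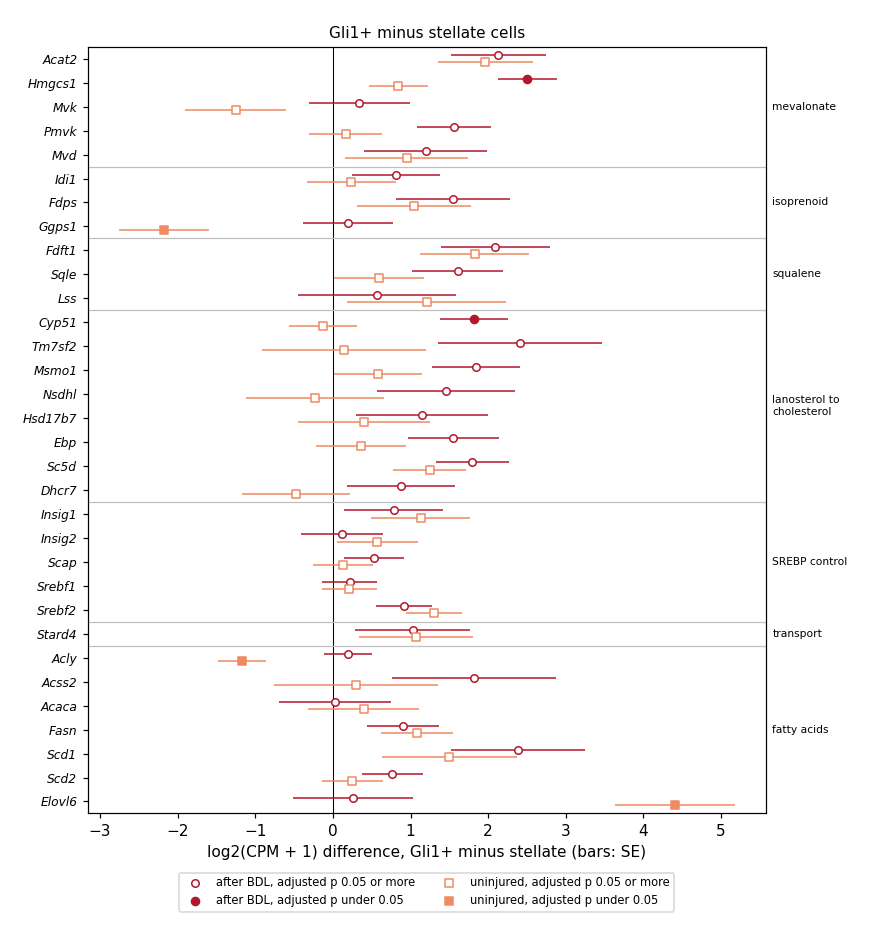
Differences between Gli1+ and stellate cells in log2(CPM + 1) for the 32 genes after BDL (red circles) and in uninjured liver (orange squares), with the SE of the model as bars and filled points for a BH-adjusted p under 0.05. After BDL every point lies right of 0 (Acaca and Insig2 were below 0 after TMM scaling), with Hmgcs1 and Cyp51 filled; in uninjured liver Ggps1 and Acly are filled left of 0 and Elovl6 right of 0.

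Between BDL and uninjured Gli1+ cells the sterol enzymes had 1 direction. All 19 had a log2 difference above 0, also after TMM scaling and with edgeR, and the libraries did not overlap for 15 of them. Of the 16446 genes tested, 9218 were above 0 in CPM. Over the 32 genes, libraries did not overlap for 20 that were higher and 1, Elovl6, that was lower after BDL, against 25.1% and 16.2% of all genes tested. The median was 1.58 for the sterol enzymes, 0.94 for the 7 fatty acid genes and -0.06 for the 5 control genes, against 0.12 for all genes. By limma 0 of 32 passed, as 0% of all genes did. At an unadjusted p under 0.05 there were 11 higher and 0 lower, against 7.1% and 3.92% of genes. These were Hmgcs1, Mvk, Idi1, Fdft1, Sqle, Cyp51, Msmo1, Nsdhl, Acly, Fasn and Scd2, by log2 differences of 0.75 to 3.24 (limma BH-adjusted p from 0.0646 to 0.432). DESeq2 called Hmgcs1, Mvk, Sqle, Cyp51 and Msmo1, and edgeR and limma-voom called 0, where edgeR called 0%, limma-voom 0% and DESeq2 2.77% of the genes each tested. All 12 hepatocyte markers were also above 0 in this comparison, with a median of 4.81, and 9 of 10 cholangiocyte markers, with a median of 1.35. Without the second Gli1+ library after BDL, 18 of 19 sterol enzymes were above 0 with a median of 1.69. Without the first, 17 were above 0 with a median of 1.57. The median was 1.91 without the first and 1.12 without the second uninjured Gli1+ library. Over the 32 genes it fell from 1.27 to 0.67 without the second uninjured Gli1+ library.

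In stellate cells after BDL the enzymes were less uniform. Of the 19 sterol enzymes 13 were above 0, as were 9992 of the 16446 genes tested. Among the enzymes, libraries did not overlap for 8 that were higher and 2 (Pmvk and Ggps1) that were lower than in uninjured liver. Over the 32 genes these counts were 14 and 4, against 27.4% and 12.2% of genes tested. The median of the 32 was 0.50, against 0.19 for all genes, while all 12 hepatocyte markers were above 0 with a median of 4.64. All 12 endothelial markers were also above 0, with a median of 2.90. The part of these cell types in the comparison was not tested. By limma 0 of 32 passed, where 0.225% of all genes did, and at an unadjusted p under 0.05 there were 5 higher and 1 lower (Ggps1), against 9.65% and 2.32% of genes. The higher ones were Mvk, Fdft1, Sqle, Fasn and Elovl6, by log2 differences of 1.64 to 3.57 (limma BH-adjusted p from 0.136 to 0.37). DESeq2 called Sqle, Elovl6 and Ggps1, and edgeR and limma-voom called 0, where edgeR called 0.377%, limma-voom 0% and DESeq2 6.74% of the genes each tested.

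**Figure D4:**
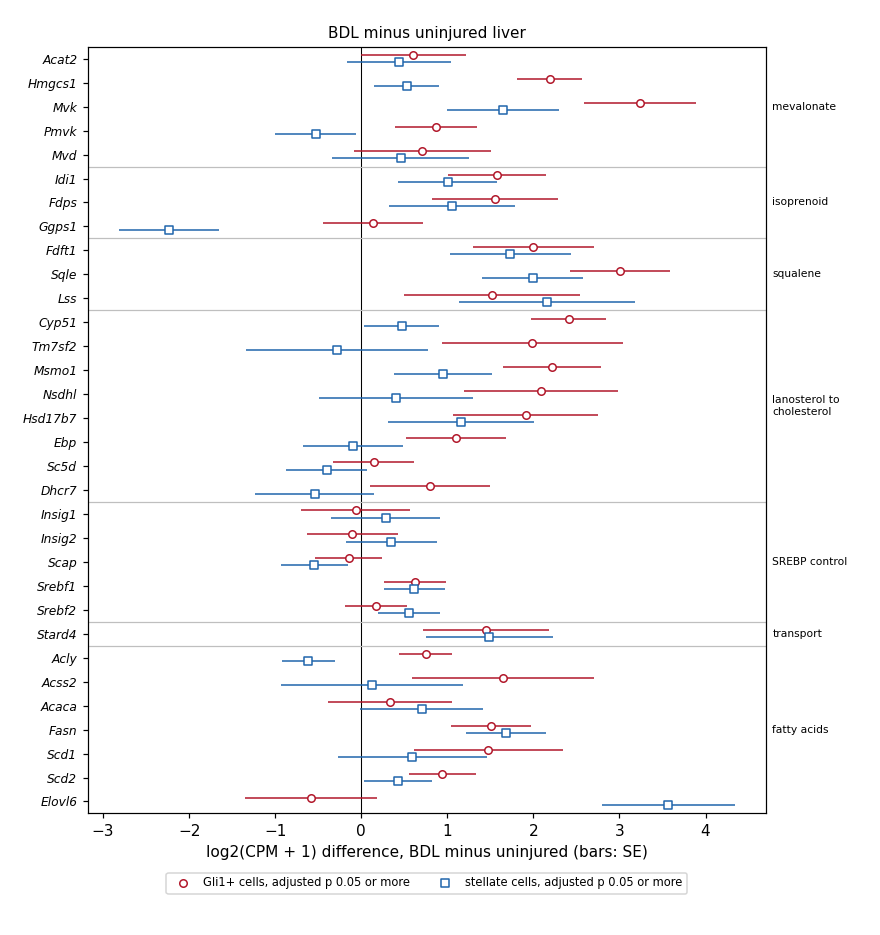
Differences between BDL and uninjured liver in log2(CPM + 1) for the 32 genes in Gli1+ cells (red circles) and stellate cells (blue squares), with the SE of the model as bars; no point passed a BH-adjusted p of 0.05. All 19 sterol enzymes lie right of 0 in Gli1+ cells, and Ggps1 (-2.23) and Elovl6 (3.57) lie furthest from 0 in stellate cells.

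Whether the populations differed in their response to BDL was tested as the difference of the responses. By limma 0 of 32 genes passed, as did 0 with edgeR, limma-voom and DESeq2, and 2 of 16446 genes passed by limma (0.0122%), while edgeR called 0.0669%, limma-voom 0% and DESeq2 2.56% of the genes each tested. At an unadjusted p under 0.05 there were 4 higher in Gli1+ cells (Hmgcs1, Cyp51, Ggps1 and Acly) and 1 lower (Elovl6), against 2.77% and 4.71% of genes. The differences were 1.66 ± 0.54 for Hmgcs1, 1.94 ± 0.62 for Cyp51, 2.37 ± 0.82 for Ggps1, 1.37 ± 0.43 for Acly and -4.15 ± 1.09 for Elovl6 (limma BH-adjusted p of 0.418 or more). A difference in BDL response between the populations was thus not shown for any single member. The median of the 19 sterol enzymes was 1.19, against -0.12 for all genes. Averaged over both populations, Sqle was 1 of 32 called higher after BDL, against 0.784% of genes called higher, 0.164% lower and 0.949% in all. At an unadjusted p under 0.05 there were 15 higher and 1 lower (Ggps1), against 12% and 3.89%. Besides Sqle, the higher ones were Hmgcs1, Mvk, Idi1, Fdps, Fdft1, Lss, Cyp51, Msmo1, Hsd17b7, Srebf1, Stard4, Fasn, Scd2 and Elovl6, by log2 differences of 0.62 to 2.44 (limma BH-adjusted p from 0.0545 to 0.282). DESeq2 called 6 (Hmgcs1, Mvk, Fdft1, Sqle, Cyp51 and Fasn), edgeR 1 (Sqle) and limma-voom 0, where edgeR called 0.942%, limma-voom 0.0122% and DESeq2 7.02% of the genes each tested. By limma the count was 5 and 3 without the first and second uninjured stellate library.

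Other genes of the pathway were taken from 4 further lists. Among 10 other genes of sterol synthesis and uptake, 2 were called higher and 0 lower in Gli1+ cells averaged over conditions. Of all genes, 12% were called higher and 4.91% lower. Of the 2, 1 is not reported here and the other was Erg28. It encodes a scaffold of sterol demethylation and was read at 91.7 and 84.5 CPM in Gli1+ cells after BDL, 58.8 and 79.0 CPM in uninjured Gli1+ cells, 44.2 and 41.8 CPM in stellate cells after BDL and 45.8 and 29.2 CPM in uninjured stellate cells, higher by 0.95 ± 0.27 (limma BH-adjusted p = 0.0453). After TMM scaling Erg28 was not called, and Lbr, a sterol reductase, was called lower in Gli1+ cells.

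Among 10 genes of SREBP processing, the haem-binding protein Pgrmc1 was called, higher in Gli1+ cells averaged over conditions by 1.56 ± 0.40 (limma BH-adjusted p = 0.0281), a call not kept after TMM scaling. This count of 1 in 10 is no more than the 12% of all genes called higher. Of 13 tested among 15 other fatty acid genes, Slc25a1, the citrate carrier of mitochondria, was called higher in Gli1+ cells of uninjured liver by 1.47 ± 0.40 and averaged over conditions by 1.17 ± 0.28 (limma BH-adjusted p = 0.0478 and 0.0216). This count of 1 in 13 is no more than the 8.06% and 12% of all genes called higher in these comparisons, and the first call was not kept after TMM scaling. Of the 12 genes of LXR signalling and sterol export, 3 were called lower and 0 higher in Gli1+ cells averaged over conditions, where 4.91% of all genes were called lower and 12% higher. Their median was -0.02 against 0.28 for all genes. Abcg1, a sterol exporter induced by LXR, was read at 27.1 and 48.1 CPM in Gli1+ cells after BDL, 97.2 and 63.9 CPM in uninjured Gli1+ cells, 119 and 133 CPM in stellate cells after BDL and 369 and 275 CPM in uninjured stellate cells. It was lower in Gli1+ cells in uninjured liver and after BDL, by log2 differences of -2.0 ± 0.39 and -1.77 ± 0.39 (limma BH-adjusted p = 0.0143 and 0.0311). Rxra, the partner receptor of LXR, was lower by a log2 difference of -2.37 ± 0.63 in uninjured liver (limma BH-adjusted p = 0.0466), at 80.5 and 19.5 CPM in Gli1+ against 255 and 174 CPM in stellate cells. Apoe, an apolipoprotein of sterol export that macrophages also make, was lower averaged over conditions by a log2 difference of -1.59 ± 0.41 (limma BH-adjusted p = 0.0292), and after BDL at 2717 and 6521 CPM in Gli1+ against 11639 and 8414 CPM in stellate cells.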

How the data were processed

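Whole-liver digests were separated on a gradient and sorted, and RNA was made into SMART-Seq2 libraries, per the labels' protocols. The deposited values are CPM, named normalized counts per the file headers, 1 column a library summing to 1000000. Per the submitters' processing notes, the tools were FastQC, STAR 2.5.2b, featureCounts and DESeq2 and the build mm10, with no roles. No source used here gives the annotation, the strand setting or the multi-mapping rule. Of 30395 identifiers 30214 matched GENCODE vM21 (GRCm38, also called mm10), which gave symbols, coordinates counted from 1 and exon lengths. Dividing by the value of 1 read gave whole reads for 100% of values (within 0.1 read). A count of 3 reads corresponded to 0.156 to 0.266 CPM, for counting error only.

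A minimum of 1 CPM in 2 or more libraries was set for testing. The test was limma-trend (limma version 3.58.1 in R version 4.3.3). It used log2(CPM + 1), which understates the change of low genes, in 1 model of 4 group means over all 8 libraries with 4 residual degrees of freedom. P-values were Benjamini-Hochberg (BH) adjusted over all 16446 genes at a threshold of 0.05, and the step was tested on simulated data. CPM is scaled to the library total only: TMM scaling moved the median log2 difference of all genes between populations in uninjured liver to 0.12, against 0.32 in CPM. Differences are to be read against these medians. Alternatives were another pseudocount, no filter, TMM, edgeR 4.0.16, limma-voom and DESeq2 1.42.0 on recovered reads, a replicate block, the 4 libraries compared alone and each library left out. Fold changes are given for members past the threshold or with an unadjusted p under 0.05, and for members and comparisons set beside them. Genes of the other pathway lists are named where called. Some genes of these lists are not reported here. The members and lists were chosen with earlier results of these data known.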

Additional observations from a re-analysis of the deposited data

Results flagged for a closer look

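Of the 32 genes, 4 had libraries that moved in opposite directions, without overlap, in the 2 populations or the 2 conditions. Pmvk, Acly and Elovl6 did so for BDL against uninjured liver. Pmvk differed by 0.87 in Gli1+ and -0.53 in stellate cells, Acly by 0.75 and -0.62, and Elovl6 by -0.58 and 3.57 (log2). Mvk and Acly did so for Gli1+ against stellate cells. Mvk differed by 0.34 after BDL and -1.25 in uninjured liver, and Acly by 0.20 and -1.17. The difference of the 2 effects was tested by limma for each and did not pass (BH-adjusted p = 0.692 for Pmvk, 0.508 for Acly, 0.418 for Elovl6 and 0.751 for Mvk). Groups of 2 libraries are too small to look for single outlying libraries within a group.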

How the results depend on the processing

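Directions were counted in the 4 comparisons of populations within 1 condition or of BDL within 1 population. The counts of the 32 genes and of the sterol enzymes above 0 moved by less than 1.5 times, a wide limit. Between populations in uninjured liver they fell without the first uninjured Gli1+ library, from 26 to 18 of 32 genes and from 14 to 10 of 19 enzymes. Of the member differences with an unadjusted p under 0.05 by limma, 0 reversed in sign under the alternatives run. Counts of members called moved more, and the cause was not tested beyond the sizes of the fits. Between populations in uninjured liver 3 were called, against 1 with no filter, 1 with edgeR, 5 with DESeq2, 0 in a fit of the 4 libraries alone and 0 to 2 with a library left out. After BDL 2 were called, against 1 with no filter, 1 with edgeR, 5 with DESeq2, 10 in a fit of the 4 libraries alone and 0 to 6 with a library left out. Averaged over conditions 6 were called, against 3 with edgeR and 1 to 10 with a library left out. For BDL, DESeq2 called 5 in Gli1+ cells and 3 in stellate cells where limma called 0, and the stellate count was 0 to 1 with a library left out. Averaged over populations 1 was called for BDL, against 0 with no filter, 0 with limma-voom, 6 with DESeq2 and 0 to 5 with a library left out. A library left out leaves its group with 1, assumed to vary like the others. The labels number replicates 1 and 2 in every group without saying what a number shares, and deviations of same-numbered libraries correlated at -0.112 to 0.112 between groups, so the numbers were not taken to pair libraries. With the replicate block the counts were 1 in uninjured liver, 1 after BDL, 6 averaged over conditions and 0 for BDL averaged over populations, and 0 in the other 3 comparisons. With 2 libraries a group, the calls are limited to large or tight differences.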

Other observations

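Ch25h, whose product 25-hydroxycholesterol is known to hold SREBPs back, was picked after its values were seen. It was read at 27.2 and 39.5 CPM in Gli1+ cells after BDL, 0 and 2.34 CPM in uninjured Gli1+ cells, 0.934 and 2.12 CPM in stellate cells after BDL and 0.0612 and 3.18 CPM in uninjured stellate cells. Both Gli1+ libraries after BDL were thus above all others. The log2 difference between Gli1+ and stellate cells after BDL was 3.78 ± 0.96 (SE), which did not pass (limma BH-adjusted p = 0.0538), and between BDL and uninjured Gli1+ cells it was 4.21 ± 0.96 (limma BH-adjusted p = 0.115).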
